A study of Saccharomyces cerevisiae with 18 samples.

Results

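Transcripts of 37 genes of glycolysis, gluconeogenesis and ethanol fermentation were followed in budding yeast, Saccharomyces cerevisiae, in 3 RNA-seq comparisons. The members are the named enzymes from hexokinase to alcohol dehydrogenase, the enzymes that set the level of the phosphofructokinase activator, and the transcription factors GCR1 and GCR2. The list was drawn up by pathway and not by measured change, and each of the 37 genes occurred once, with an adjusted p, in each table. The tables held 9380 tested transcripts for U3, and 9418 and 9433 genes with a p for the snR4 deletion in glucose and on ice.

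The study sequenced RNA from 18 libraries in 6 groups of 3, all of BY4741 background (MATa, his3Δ1, leu2Δ0, met15Δ0, ura3Δ0) and grown at 30 °C in SD glucose medium. The labels give poly(A) selection for every library, whereas the study's text on the U3 experiment names rRNA depletion by RiboMinus, so the RNA selection of the 6 U3 libraries is uncertain. In the U3 mutant group the SNR17B locus was deleted and the chromosomal SNR17A was driven by a PGAL promoter, which glucose represses. The U3 wild type group shares this background only if it is the complemented strain. The U3 mutant group expressed a truncated U3 from the centromeric plasmid pRS413, and the U3 wild type group, per its label, expressed intact SNR17A from the same vector. The methods describe that plasmid for complementation and name BY4741 as the control for sequencing, and the labels are followed here. With BY4741 as control the groups would also differ in SNR17B, in the promoter of SNR17A and in the plasmid. The U3 mutant clones were pre-grown in galactose and then kept in glucose to deplete the chromosomal U3, a step not described for the snR4 groups, and it is not stated whether the U3 wild type libraries went through it. In the other experiment, a strain with the SNR4 gene deleted was set against unmodified BY4741, either in glucose medium or after a short exposure to ice-cold PBS, and each condition had its own controls. The U3 mutant and the snr4 deletion were each sequenced from 3 transformants per the methods, and the U3 mutant strain was described as inviable on glucose, so altered growth and altered U3 cannot be told apart in that comparison. For the control libraries no source says whether they came from separate cultures.

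Glycolysis splits glucose to pyruvate, and budding yeast turns most of that pyruvate into ethanol even when oxygen is present. Glycolytic enzymes are among the most abundant proteins of a growing cell, and their genes are activated jointly by Rap1, Gcr1 and Gcr2. Several steps have paralogs with distinct regulation: one copy serves during growth on glucose while another is repressed by it. FBP1 and PCK1, the enzymes unique to gluconeogenesis, are repressed in glucose. U3 is a small nucleolar RNA (snoRNA) required for small ribosomal subunit assembly, while snR4 is a non-essential box C/D snoRNA.

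The deposited tables give a mean level, a fold change, a standard error (SE) and an adjusted p for each gene, but no value for a single library. Group means and a pooled within-group SD could be derived for U3 from the deposited coefficient and variances, as geometric means of the estimated count of 3 libraries. For the snR4 tables, group levels were derived from the mean normalised count over 6 libraries and the shrunken fold change, so they understate the contrast of genes with few reads. All levels are relative values after the authors' scaling between libraries, and are not shares of a library total. A culture with less RNA per cell cannot be told apart from one with fewer cells. For U3 the summed group means were 17727913 in the wild type and 23167679 in the mutant. The U3 counts and fold changes are therefore not set to an equal total. A gene was called higher or lower when its deposited q (sleuth) or adjusted p (DESeq2) was under 0.05. As a check of the labels, snR4 was 7.53-fold lower in the glucose libraries of the deletion and 5.62-fold lower in the ice libraries, both on the shrunken scale (DESeq2 adjusted p = 9.66e-77 and 7.29e-76). The U3 transcript itself (snR17a) had a log2 fold change of 1.24 ± 0.86 (SE) with a sleuth q of 0.277, and a level per gene does not show the truncation. SNR17B, deleted in the U3 mutant strain, was still listed with a mean of 134 estimated counts and a log2 fold change of 0.68 ± 0.73 (sleuth q = 0.515). Reads can be divided between these copies of the U3 gene. The U3 table does not state its reference group, and each direction given below rests on reading a positive coefficient as higher in the mutant. With the opposite reading every U3 direction and share would swap between the groups. Summed mean normalised counts were 14613981 in glucose and 13472351 on ice.

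In the U3 mutant 24 of the 37 genes were higher and 3 were lower than in the U3 wild type. Across all transcripts tested there, 17.2% were called higher and 17.5% lower, against 64.9% and 8.11% of the members. The median log2 fold change of the members was 1.41, while that of all tested transcripts was -0.07. Abundant transcripts were called higher more often throughout, with 40.3% of the 10% of transcripts with the highest level. Of the 17 members in that upper range 15 were higher and none was lower. The other 20 members lay below it, where 9 were higher and 3 were lower, beside 14.6% called higher among all transcripts in the same range. Together the members made up 1.61% of the summed group means in the U3 wild type and 5.12% in the U3 mutant.

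**Figure D1:**
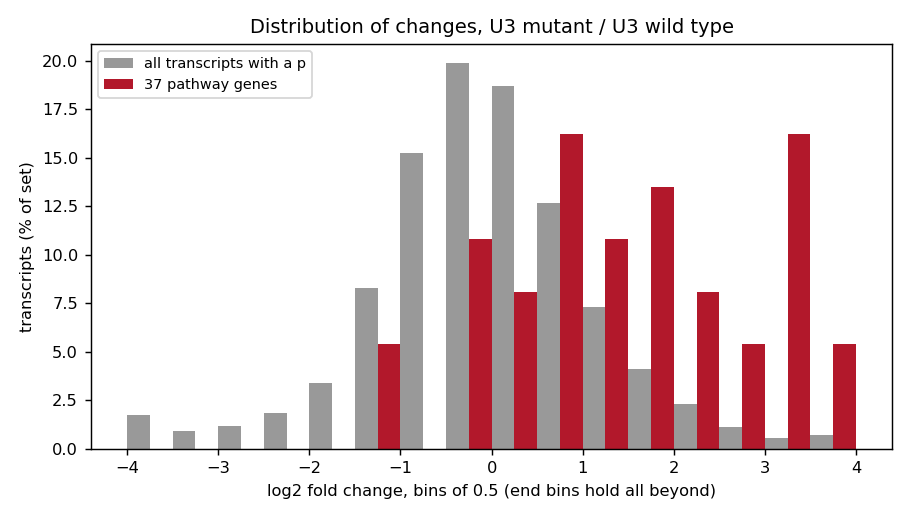
Share of transcripts (%, vertical axis) in bins of the log2 fold change of U3 mutant over U3 wild type (horizontal axis), for all 9380 tested transcripts (grey) and the 37 pathway genes (red). The grey bars centre near 0 and the red bars reach from -1.49 to 3.64, with 13 genes at 2 or above.

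Glucose enters glycolysis through the hexose kinases, and all 5 genes of hexose phosphorylation and the isomerase step were higher in the U3 mutant. HXK1 (YFR053C, chrVI:253592-255049), a hexokinase that glucose represses, had 198 estimated counts in the U3 wild type and 2043 in the mutant, with a within-group SD of 0.48 on the log2 scale. The groups thus lay 10.3-fold apart, a log2 fold change of 3.36 ± 0.40 (SE; sleuth q = 1.33e-15). GLK1 (YCL040W, chrIII:50838-52340), the glucokinase, rose from 538 to 4632 estimated counts, a log2 fold change of 3.10 ± 0.50 (sleuth q = 1.21e-08). EMI2, the paralog of GLK1, rose from 361 to 1792 estimated counts (log2 fold change 2.31 ± 0.30, sleuth q = 7.82e-13). Each of these 3 genes had fewer counts per kb than HXK2 in both U3 groups. HXK2, the main hexokinase on glucose, had 3875 and 10269 estimated counts and rose by a smaller factor of 2.65 (sleuth q = 5.23e-07). Its share of the counts per kb of the 4 kinases was 78.3% in the U3 wild type and 55.3% in the mutant. PGI1, the phosphoglucose isomerase, rose from 8206 to 20536 estimated counts, a factor of 2.50 (sleuth q = 1.77e-06).

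The phosphofructokinase step, the committed step of glycolysis, did not move as one. PFK1, which encodes the alpha subunit, rose from 4120 to 8505 estimated counts (log2 fold change 1.05 ± 0.35, sleuth q = 0.0105). PFK2, the beta subunit, had 3923 and 7125 estimated counts and a log2 fold change of 0.86 ± 0.44 that did not pass the threshold (sleuth q = 0.121). PFK27 (YOL136C), a kinase that makes the sugar bisphosphate that activates phosphofructokinase, was the opposite case. It had 1385 estimated counts in the U3 wild type and 537 in the mutant, with a within-group SD of 0.22 on the log2 scale, and a log2 fold change of -1.36 ± 0.19 (sleuth q = 8.62e-12). PFK26, which encodes the other such kinase, had 395 and 378 estimated counts with a 95% interval of the log2 fold change from -0.54 to 0.42. FBP26, the phosphatase that removes the same activator, had 737 and 665 estimated counts with an interval from -0.76 to 0.46.

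All 13 genes of lower glycolysis, from aldolase to pyruvate kinase, were higher in the U3 mutant. Their log2 fold changes ran from 0.89 to 3.64 with a median of 2.57. The 3 glyceraldehyde phosphate dehydrogenase genes share much of their sequence and are therefore given together first: they summed to 50795 estimated counts in the U3 wild type and 322369 in the mutant, a 6.35-fold difference. TDH2 (YJR009C, chrX:453683-454681) rose from 2394 to 29778 estimated counts, with a log2 fold change of 3.64 ± 0.41 (sleuth q = 1.22e-16) that was the largest of the 37 genes. Only 55 of the 9380 transcripts had a larger value. TDH1 (YJL052W), whose product is known from stationary phase cells, rose from 898 to 10537 (log2 fold change 3.55 ± 0.28, sleuth q = 3.16e-33). TDH3, the highest of the set per kb of coding length in both groups, rose from 47504 to 282054 with a wider within-group SD of 0.72 (log2 fold change 2.57 ± 0.59, sleuth q = 9.09e-05). Of the 31-base stretches of coding sequence, 50.6% in TDH2, 43.2% in TDH3 and 26.3% in TDH1 recur in another yeast coding sequence, so the division of reads among these paralogs is uncertain.

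The steps after it rose in the same way. PGK1 (YCR012W, chrIII:137746-138996), the phosphoglycerate kinase, rose from 9102 to 82073 estimated counts (log2 fold change 3.17 ± 0.42, sleuth q = 1.49e-12). GPM1 (YKL152C), the phosphoglycerate mutase, rose from 11802 to 118073 (log2 fold change 3.32 ± 0.34, sleuth q = 1.75e-20). It made up 96.1% of the counts per kb of the 3 GPM genes in the U3 wild type and 99.1% in the mutant. Its minor paralogs GPM2, at 66.9 and 302.9 estimated counts, and GPM3, at 514 and 957, rose by 4.50-fold and 1.86-fold (sleuth q = 1.92e-07 and 1.14e-05). The enolase genes ENO1 and ENO2, for which 38.8% of the 31-base stretches are shared, summed to 21127 estimated counts in the U3 wild type and 155500 in the mutant, a 7.36-fold difference. ENO1 had the larger log2 fold change at 3.28 ± 0.45 (sleuth q = 1.39e-11), beside 2.81 ± 0.42 for ENO2 (sleuth q = 5.22e-10), and the difference between these paralogs was not tested.

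The aldolase FBA1 and the triose phosphate isomerase TPI1, which act before the dehydrogenase, rose by 3.66-fold and 3.53-fold (sleuth q = 2.08e-08 and 3.01e-09). Pyruvate kinase ends the pathway. CDC19 (YAL038W, chrI:71786-73288), its main gene, rose from 31207 to 91008 estimated counts with a within-group SD of 0.61 (log2 fold change 1.54 ± 0.49, sleuth q = 0.00722). PYK2, the minor pyruvate kinase gene that glucose represses, rose from 117 to 377 estimated counts (log2 fold change 1.69 ± 0.45, sleuth q = 8.74e-04). Of the pyruvate kinase counts per kb PYK2 made up 0.368% in the U3 wild type and 0.407% in the mutant.

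**Figure D2:**
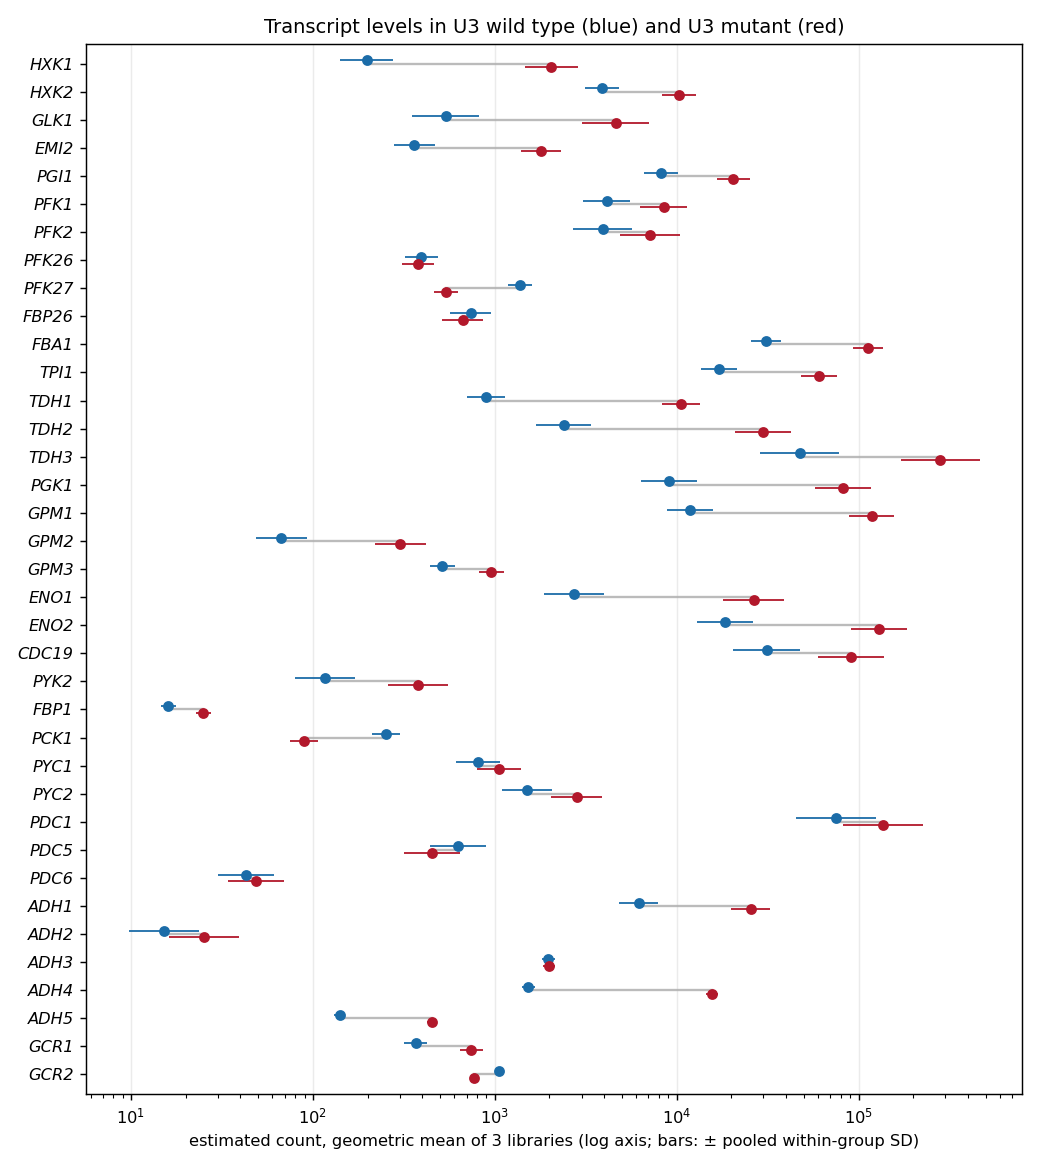
Estimated count of each of the 37 genes (log axis, geometric mean of 3 libraries) in the U3 wild type (blue) and the U3 mutant (red), with bars of ± 1 pooled within-group SD. From FBA1 to PYK2 the red point lies to the right in every row, while PFK27, PCK1 and GCR2 have it to the left.

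The genes of gluconeogenesis and anaplerosis were mixed, with 1 of 4 higher, 1 lower and 2 not called. PCK1 (YKR097W), the phosphoenolpyruvate carboxykinase, had 253 estimated counts in the U3 wild type and 89.5 in the mutant, a log2 fold change of -1.49 ± 0.25 (sleuth q = 4.98e-08) and the lowest value of the set. FBP1, the fructose bisphosphatase, was scarce in both groups, with 16.1 and 25.0 estimated counts, and was not called (sleuth q = 0.435). The pyruvate carboxylases feed oxaloacetate to the citric acid cycle as well as to gluconeogenesis. PYC2 rose from 1503 to 2819 estimated counts with a q close to the threshold (log2 fold change 0.91 ± 0.37, sleuth q = 0.0455), and PYC1 had 808 and 1059 (sleuth q = 0.380).

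In ethanol fermentation 3 of 8 genes were higher and none was lower. PDC1 (YLR044C, chrXII:232390-234081), the main pyruvate decarboxylase, came second to TDH3 in counts per kb in the U3 wild type. It had 74936 estimated counts there and 135788 in the mutant, and with a within-group SD of 0.73 its log2 fold change of 0.86 ± 0.60 was not called (sleuth q = 0.278). Its paralogs PDC5, at 626 and 451 estimated counts, and PDC6, at 42.7 and 48.7, were not called either (sleuth q = 0.413 and 0.773). ADH1, which makes ethanol from acetaldehyde, rose from 6177 to 25560 estimated counts (log2 fold change 2.05 ± 0.29, sleuth q = 5.42e-11). ADH4 (YGL256W), a further alcohol dehydrogenase known to respond to zinc supply, rose from 1533 to 15681. Its within-group SD was only 0.11 and its log2 fold change was 3.35 ± 0.22, with the lowest q of the set (sleuth q = 3.33e-48). ADH5 rose from 141 to 452 estimated counts (log2 fold change 1.68 ± 0.21, sleuth q = 5.92e-14). ADH3, the mitochondrial enzyme, had 1974 and 1988 estimated counts with a 95% interval of the log2 fold change from -0.38 to 0.40. ADH2, which oxidises ethanol and is repressed by glucose, stayed scarce at 15.2 and 25.2 (sleuth q = 0.380).

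The 2 transcription factors went opposite ways. GCR1 (YPL075W, chrXVI:412254-415362) rose from 368 to 743 estimated counts (log2 fold change 1.01 ± 0.18, sleuth q = 4.45e-07). GCR2 (YNL199C), whose product binds Gcr1, fell from 1055 to 767 (log2 fold change -0.46 ± 0.18, sleuth q = 0.0377). GCR1 is the only member with more than 1 coding exon.

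Gcr1 is known to recognise CTTCC, so this word was looked for on both strands, with overlaps counted, in the 300 bases from -500 to -201 before each start codon. Of the 37 members 23 held it at least once, which is 62.2%, beside 49.4% of the 6000 windows of protein coding genes. Among the 24 members higher in the U3 mutant 17 held it (70.8%), and among the 13 others 6 did (46.2%). This split was not tested. Windows that overlap another gene were kept in these counts. Such windows with a match were those of PGI1, PYK2, PYC2, TDH1 and ADH5 among the higher members and of FBP26 among the others. At least 3 matches were found in 2 members, PGK1 and CDC19, which is 5.41% of members beside 3.50% of all windows. Their windows are printed because both genes rose and hold the most matches. They come from RefSeq R64, run on the plus strand at chrIII:137246-137545 and chrI:71286-71585, and have CTTCC in capitals.

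PGK1: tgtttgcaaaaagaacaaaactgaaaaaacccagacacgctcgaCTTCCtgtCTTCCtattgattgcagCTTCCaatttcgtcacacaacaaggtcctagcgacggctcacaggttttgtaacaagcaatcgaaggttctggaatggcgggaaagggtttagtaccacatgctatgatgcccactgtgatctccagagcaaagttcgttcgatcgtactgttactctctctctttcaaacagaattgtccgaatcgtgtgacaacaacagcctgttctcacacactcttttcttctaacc
CDC19: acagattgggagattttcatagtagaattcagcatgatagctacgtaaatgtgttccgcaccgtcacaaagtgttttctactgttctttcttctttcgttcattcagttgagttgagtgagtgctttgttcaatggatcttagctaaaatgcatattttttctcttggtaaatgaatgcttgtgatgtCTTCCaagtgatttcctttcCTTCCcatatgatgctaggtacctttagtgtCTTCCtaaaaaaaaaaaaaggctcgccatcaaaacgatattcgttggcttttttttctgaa

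The matches are letters in a window and were not tested as binding sites. In PGK1 they lie close together near the distal end, and in CDC19 they lie in the proximal part.

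The study also recovered chimeric reads that join a snoRNA to an mRNA, and its filtered contact list pairs U3 with CDC19 and PDC1. The mRNA and U3 parts of such reads are printed for CDC19 at 2 sites of the coding sequence, chrI:72820-72844 and chrI:72985-73008 (plus strand, R64). ADH3 at chrXIII:435135-435157 was added after its sequence was seen, because its U3 part overlaps that of the first CDC19 site. Letters are those of the reads (T for U), 5′ to 3′, and capitals mark the longest run that can pair, G-U pairs included, between the mRNA and the snoRNA part.

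CDC19 first site: taccactATGGCTGAAaccgctgtc
U3 with CDC19 first site: agcggTTCGGCCATcta
CDC19 second site: CTTGTCCacttccggtaccacccc
U3 with CDC19 second site: acttcttttttgaagGGATAGGgct
ADH3: aggtatcaaATGGCTGAACggtt
U3 with ADH3: agcgGTTCGGCCATctataa

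The paired run was 9 bases at the first CDC19 site, 7 at the second and 10 in ADH3. CDC19 rose 2.92-fold in the U3 mutant, and ADH3, which shares the run ATGGCTGAA, had a ratio of 1.01 between the groups. PDC1 had a ratio of 1.81 and was not called. Whether a contact bears on a level was not tested.

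Changes in the snR4 deletion were smaller. In glucose 10 members were higher and 6 lower than in BY4741. Over the 6131 genes with an adjusted p, 10.8% were called higher and 7.31% lower. The corresponding shares of the members were 27.0% and 16.2%, and their median log2 fold change was 0.03 beside -0.01 for all genes with a p. The members were mostly abundant, with 22 of them among the 10% of genes with the highest level. Their median SE was 0.071, beside 0.087 for all genes with a p. Shares among genes of similar level were not computed here, so whether the members were called more often than equally abundant genes was not tested. On the shrunken scale no member changed by a factor of 2 or more. The width of the authors' prior is not stated, so shrinkage was undone with an assumed width of 2 times the largest SE. Under that assumption ADH2 reached a log2 fold change of 1.13. The 16 called members had a median size of change of 0.32 on the log2 scale.

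**Figure D3:**
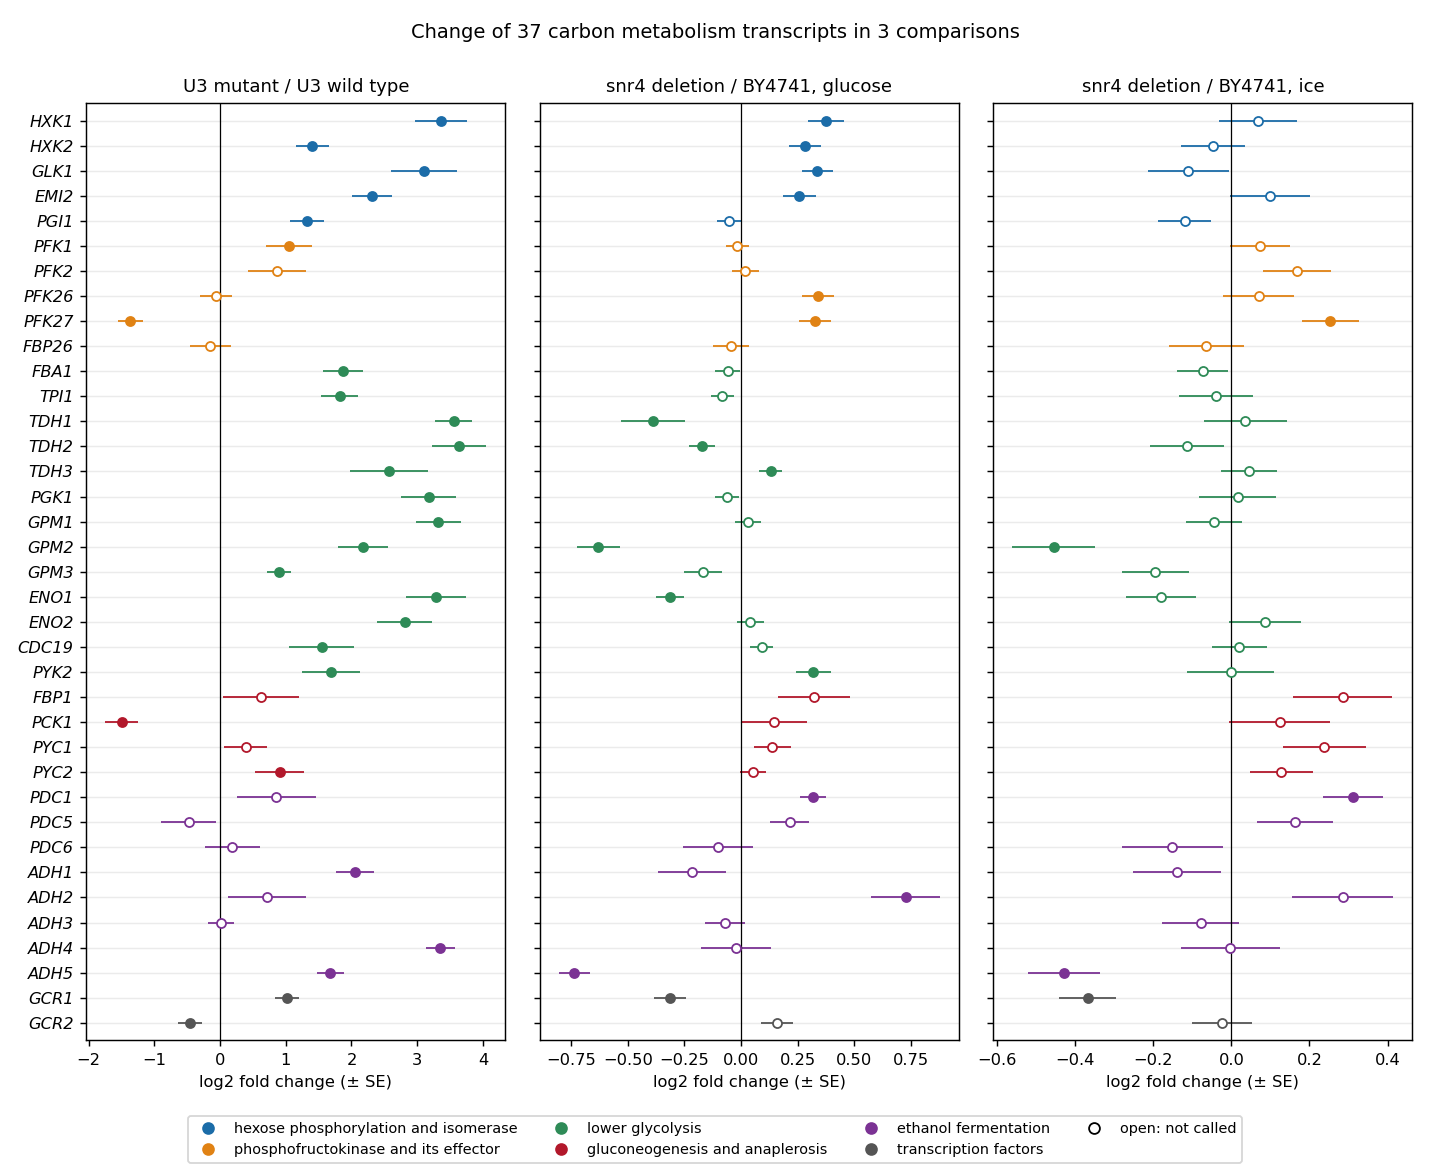
Log2 fold change ± SE of the 37 genes (rows, coloured by pathway role) for U3 mutant over U3 wild type, and for the snr4 deletion over BY4741 in glucose and on ice; filled points were called and open points were not, and the 3 horizontal axes differ in scale. Called points number 27, 16 and 5 from left to right, and the hexose kinases are higher in the first 2 panels.

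Of the hexose phosphorylation and isomerase genes 4 of 5 were higher in glucose. HXK1 had a derived level of 15681 normalised counts in BY4741 and 20357 in the deletion, a log2 fold change of 0.38 ± 0.08 (DESeq2 adjusted p = 3.84e-05). GLK1 had 18960 and 23952, a log2 fold change of 0.34 ± 0.07 (DESeq2 adjusted p = 1.76e-05). HXK2 and EMI2 were 1.22-fold and 1.20-fold higher (DESeq2 adjusted p = 8.29e-04 and 0.00553). The isomerase PGI1 did not follow the kinases, with a log2 fold change of -0.05 ± 0.05 (DESeq2 adjusted p = 0.533). Both kinases that make the phosphofructokinase activator were higher. PFK26 rose from 1364 to 1726 normalised counts and PFK27 from 1318 to 1653, log2 fold changes of 0.34 ± 0.07 and 0.33 ± 0.07 (DESeq2 adjusted p = 3.65e-05 and 9.19e-05). The subunit genes PFK1 and PFK2 had log2 fold changes of -0.02 ± 0.05 and 0.02 ± 0.06 and were not called.

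Lower glycolysis split between paralogs in glucose, with 2 genes higher, 4 lower and 7 not called. TDH3 was 1.09-fold higher (DESeq2 adjusted p = 0.0447) while TDH1 had a log2 fold change of -0.39 ± 0.14 and TDH2 of -0.17 ± 0.06 (DESeq2 adjusted p = 0.0370 and 0.0202). TDH1 had 28365 normalised counts in BY4741 and 21655 in the deletion. Of the enolases ENO1 was lower, at 44700 and 35944 normalised counts (log2 fold change -0.31 ± 0.06, DESeq2 adjusted p = 6.36e-06), and ENO2, which predominates on glucose, had 124082 and 127626 and was not called. The abundant genes FBA1, TPI1, PGK1 and GPM1 had log2 fold changes between -0.08 and 0.03 and none was called. GPM2 (YDL021W, chrIV:413953-414888), a minor mutase paralog, had 746 and 481 normalised counts, a log2 fold change of -0.63 ± 0.09 (DESeq2 adjusted p = 1.75e-09). PYK2 was 1.25-fold higher (DESeq2 adjusted p = 5.52e-04), and CDC19, with a log2 fold change of 0.09 ± 0.05, was not called.

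PDC1 rose in the deletion. It had 136001 normalised counts in BY4741 and 169500 in the deletion in glucose, a log2 fold change of 0.32 ± 0.06 (DESeq2 adjusted p = 4.52e-07). ADH5 (YBR145W, chrII:533762-534817) had the lowest value of the set, at 2904 and 1742 normalised counts and a log2 fold change of -0.74 ± 0.07 (DESeq2 adjusted p = 6.08e-25). Only 21 of the 9418 genes with a p fell further. ADH2 had the highest, 0.73 ± 0.15 (DESeq2 adjusted p = 3.77e-05), from a low level of 82.3 normalised counts over the 6 libraries. ADH1, which shares 18.4% of its 31-base stretches with ADH2, had a log2 fold change of -0.22 ± 0.15 and was not called (DESeq2 adjusted p = 0.355). GCR1 had 2418 and 1945 normalised counts (log2 fold change -0.31 ± 0.07, DESeq2 adjusted p = 1.05e-04), and GCR2 had a log2 fold change of 0.16 ± 0.07 (DESeq2 adjusted p = 0.105). None of the 4 genes of gluconeogenesis and anaplerosis was called, with log2 fold changes from 0.05 to 0.32.

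On ice 2 members were higher and 3 lower in the deletion, 5.41% and 8.11% of the 37. Over the 6140 genes with an adjusted p, 3.66% were called higher and 2.82% lower. Among the 10% of genes with the highest level on ice were 20 members, and shares among genes of similar level were again not computed. The median SE was 0.095 for the members and 0.085 for all genes with a p. The median log2 fold change of the members and of all genes was 0.00 to 2 decimals. All 5 members called on ice were also called in glucose in the same direction. The share of all genes called on ice for which this held was not computed. The conditions share no library, but both set the same deletion against BY4741, so they do not compare separate strains. Whether both used the same transformants is not stated. PDC1 had 123834 normalised counts in BY4741 and 153730 in the deletion, a log2 fold change of 0.31 ± 0.08 (DESeq2 adjusted p = 0.00260). PFK27 had 1705 and 2032 (log2 fold change 0.25 ± 0.07, DESeq2 adjusted p = 0.0158). GPM2 was lower at 338 and 246 normalised counts, a log2 fold change of -0.45 ± 0.11 (DESeq2 adjusted p = 0.00110). ADH5 was lower at 1225 and 910 (log2 fold change -0.43 ± 0.09, DESeq2 adjusted p = 3.58e-04). GCR1 was lower at 2635 and 2042 (log2 fold change -0.37 ± 0.07, DESeq2 adjusted p = 5.87e-05).

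The effect of the deletion on ice was compared with that in glucose gene by gene, as a two-sided normal test of the difference in log2 fold change adjusted over 9308 genes. Over all genes 1.09% differed, and of the 37 members 1 did. GLK1 had a log2 fold change of -0.11 ± 0.10 on ice beside 0.34 ± 0.07 in glucose, a difference of -0.45 ± 0.12 with an adjusted p of 0.0343. This call was lost once shrinkage had been undone under the assumed prior width. Of the 31-base stretches of GLK1, 5.16% recur in the overlapping open reading frame YCL042W. HXK2 had a difference of -0.33 ± 0.11 with an adjusted p of 0.123, and HXK1 of -0.31 ± 0.13 with an adjusted p of 0.416. The unadjusted p was under 0.05 for 8 members, and the share of all 9308 genes under that limit was not computed. For PDC1 the difference was -0.01 with a 95% interval from -0.19 to 0.18, and for GCR1 it was -0.05 with an interval from -0.25 to 0.14.

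**Figure D4:**
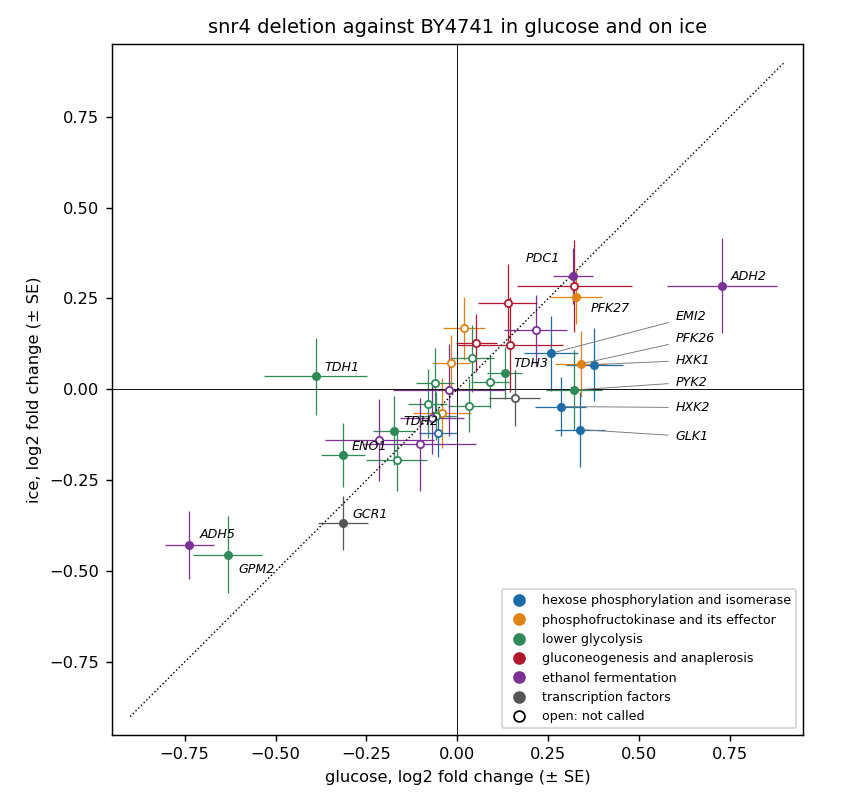
Log2 fold change ± SE of the snr4 deletion over BY4741 in glucose (horizontal) and on ice (vertical) for the 37 genes, filled where called in either condition, with the dotted line of equal change. PDC1 and PFK27 lie near the line at the upper right, GCR1, GPM2 and ADH5 lie at the lower left, and GLK1 lies below the horizontal zero line.

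The study's contact lists pair snR4 with PDC1 in the filtered list, and with PGK1, FBA1, ADH1 and TDH3 in addition in the complete one, of which only a shortened copy was used here, so further pairs may be missing. The mRNA and snR4 parts of the reproducible chimeric reads are printed for the 4 genes whose reads were matched to R64. The PDC1 part lies 19 to 46 bases after the stop codon (chrXII:232344-232371, minus strand). The other parts lie in coding sequence, in PGK1 at chrIII:138549-138570 on the plus strand, in FBA1 at chrXI:326930-326955 and in ADH1 at chrXV:160245-160264, both on the minus strand. Capitals again mark the longest run that can pair.

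PDC1: atTAGTTAAAGTtttataagcattttta
snR4 with PDC1: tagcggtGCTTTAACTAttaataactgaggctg
PGK1: GGAAAAGGCCAaggccaagggt
snR4 with PGK1: tggattgtgccgTGGCCTTTTTC
FBA1: ttaccGGTGGTGAAGAAGatggtgtt
snR4 with FBA1: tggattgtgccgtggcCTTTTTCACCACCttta
ADH1: aaCTGTCCTCAcgctgactt
snR4 with ADH1: TGAGGATAGgttatagttcat

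The paired run was 10 bases in PDC1, 11 in PGK1, 13 in FBA1 and 9 in ADH1. PGK1 and FBA1 pair with overlapping parts of snR4, while the PDC1 and ADH1 parts of snR4 are different stretches. Of these 4 genes PDC1 alone was called in the deletion at its deposited adjusted p, in glucose and on ice. On ice PGK1 had a log2 fold change of 0.02 ± 0.10, FBA1 of -0.07 ± 0.07 and ADH1 of -0.14 ± 0.11. TDH3, for which no sequence is shown, was higher in glucose and not called on ice.

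Levels in the glucose and ice tables were set side by side per kilobase of coding length, without a test, because each table was normalised on its own. TDH3 was the most abundant member in both, with 253023 normalised counts per kb in glucose and 209541 on ice, followed by FBA1 and GPM1. The median ratio of glucose to ice level was 1.20 over the members and 1.05 over the 4654 genes at or above the median level in glucose. For 9 members it was at least 2. HXK1, EMI2 and GLK1, the kinases other than HXK2, stood furthest apart with ratios of 6.83, 6.46 and 6.21, whereas HXK2 had 1.29. PYK2, TDH1, FBP26, ADH5, PFK26 and GPM2 had ratios between 2.10 and 2.85. The share of HXK2 among the kinase counts per kb was 32.5% in the glucose table and 70.7% in the ice table. The members made up 10.2% of the summed levels in glucose and 8.97% on ice.

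**Figure D5:**
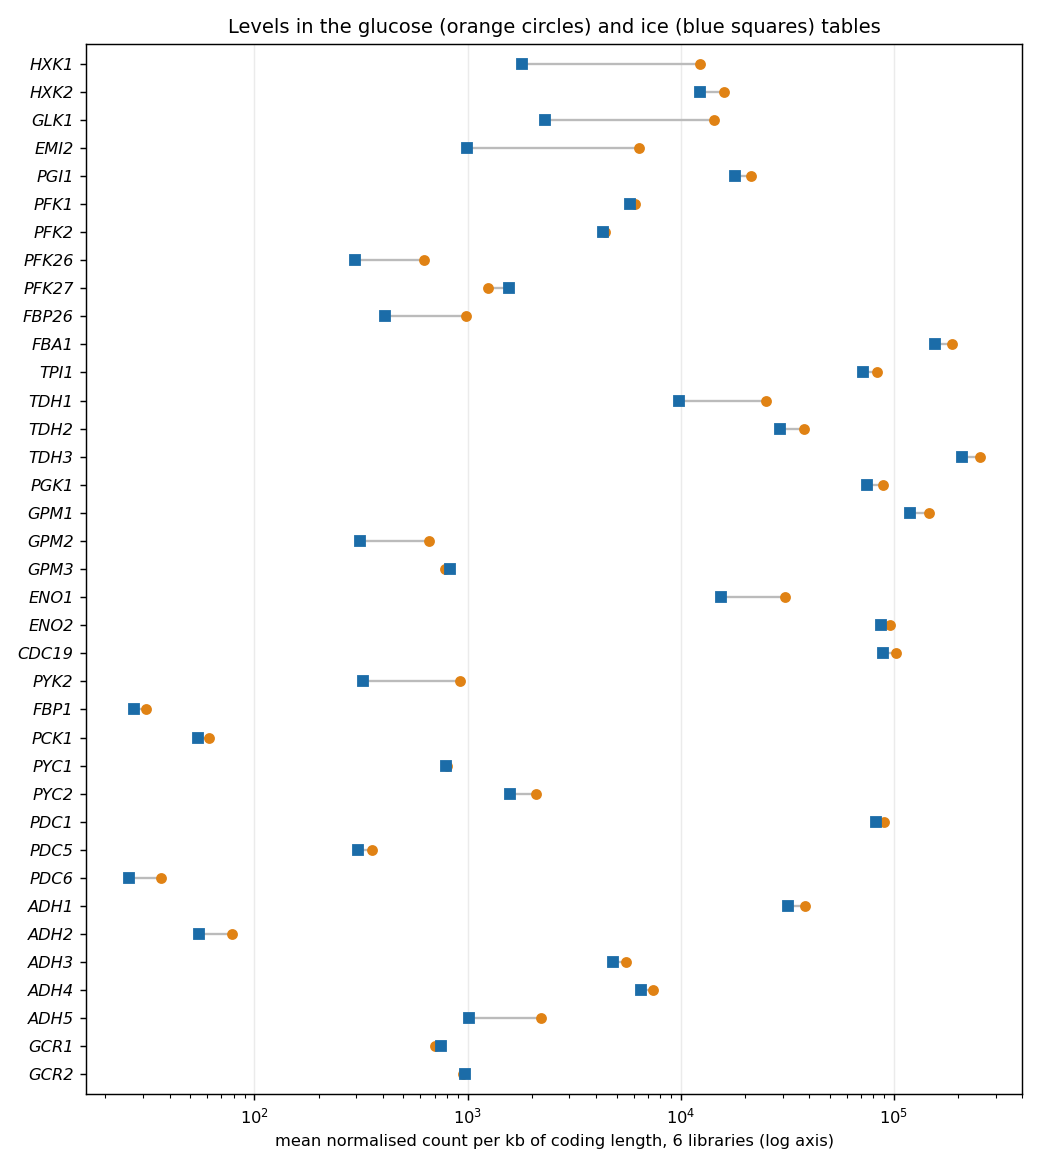
Mean normalised count per kb of coding length (log axis) of the 37 genes in the glucose (orange circles) and ice (blue squares) tables, each a mean over 6 libraries with no error deposited. The symbols of HXK1, GLK1 and EMI2 lie far apart, and those of most other genes lie close together.

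Across the comparisons, 7 members were called in none: PFK2, FBP26, FBP1, PYC1, PDC5, PDC6 and ADH3. The 4 genes called in all 3 were PFK27, GPM2, ADH5 and GCR1, and each went one way in the U3 mutant and the other way in the snR4 deletion. PFK27 was lower in the U3 mutant and higher in the deletion, and GPM2, ADH5 and GCR1 were higher in the U3 mutant and lower in the deletion. Of the members called in both U3 and glucose, 6 were higher in both: HXK1, HXK2, GLK1, EMI2, TDH3 and PYK2. Another 6 were higher in U3 and lower in glucose: TDH1, TDH2, GPM2, ENO1, ADH5 and GCR1. How often genes outside the list show these patterns was not computed, so none of them is shown to be particular to the pathway.

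Genes beside the pathway were taken from fixed lists. Their counts are to be read beside the shares given above, over all transcripts or genes with an adjusted p. These were 17.2% higher and 17.5% lower in U3, 10.8% and 7.31% in glucose and 3.66% and 2.82% on ice. No list was tested against those shares. Of 10 further regulators 2 were lower and none was higher in the U3 mutant: PDC2, an activator of the pyruvate decarboxylase genes, with a log2 fold change of -1.43 ± 0.19, and MIG1, the glucose repressor, with -0.82 ± 0.19 (sleuth q = 5.01e-13 and 8.47e-05). In the snR4 deletion in glucose 5 of the 10 were higher and none was lower. CAT8 and ADR1, activators of genes for growth on ethanol, had log2 fold changes of 0.75 ± 0.10 and 0.43 ± 0.06 (DESeq2 adjusted p = 1.61e-11 and 1.04e-09), and the others were MIG1 (0.56 ± 0.08), SIP4 (0.43 ± 0.15) and RAP1 (0.21 ± 0.07). On ice MIG1 alone was called, at 0.49 ± 0.09 (DESeq2 adjusted p = 1.58e-06). The pentose phosphate pathway, which branches from glycolysis at glucose phosphate, had 3 of 11 genes higher (TAL1, GND1 and SOL4) and 1 lower (RKI1) in the U3 mutant, and a median log2 fold change of -0.11. In the deletion in glucose it had 3 higher (ZWF1, RPE1 and TKL1) and 1 lower (NQM1), and none was called on ice.

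Of 9 genes of mitochondrial pyruvate metabolism, 3 were higher in the U3 mutant (LAT1, LPD1 and DLD1) and none was lower. In glucose MPC1, MPC2 and MPC3 were not found by name. Of the other 6 genes 3 were higher, DLD1, PDA1 and LAT1, with log2 fold changes of 0.43 ± 0.07, 0.28 ± 0.05 and 0.28 ± 0.05. Of 5 further alcohol and butanediol dehydrogenase genes, BDH1 (1.56 ± 0.23), ADH7 (1.12 ± 0.34) and BDH2 (0.88 ± 0.26) were higher in the U3 mutant, and BDH2 and ADH6 were higher in the deletion in glucose. The GID ubiquitin ligase degrades gluconeogenic enzymes when glucose returns. Among its 8 genes UBC8, VID30 and VID28 were higher in the U3 mutant and VID24, which encodes its substrate receptor, was lower with a log2 fold change of -1.99 ± 0.18 (sleuth q = 1.04e-24). In the snR4 deletion GID7 was higher in glucose by 0.35 ± 0.08, and FYV10 was lower on ice with a log2 fold change of -0.34 ± 0.11 (DESeq2 adjusted p = 2.47e-04 and 0.0443). VID24 was higher in the deletion, by 0.18 ± 0.07 during growth in glucose and by 0.45 ± 0.08 after ice (DESeq2 adjusted p = 0.0446 and 2.91e-06).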

How the data were processed

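RNA-seq was done on 18 libraries, with poly(A) selection per the labels and, for U3, RiboMinus depletion in part of the study's text. Groups were taken from the sample titles. For U3 the authors estimated transcript counts with kallisto and used sleuth for the test. The snR4 reads were trimmed with Trimmomatic, mapped with STAR, counted with HTSeq and tested per condition with DESeq2, all by the authors. The submitters' processing notes name R64 as the genome build. The library kit was directional, and the strand setting of the counting is not given in the sources used here, so overlapping and antisense genes are uncertain.

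Each deposited table holds the authors' own comparison, and these columns were the only values used. Nothing was refitted, and the counts of calls describe the authors' tests. The U3 table gives the authors' coefficients, errors and means as the natural log of (estimated count + 0.5), with variance components that are score values. These were converted to log2. The scale was settled from the variances, since the total variance of 6 libraries equalled the within-group and between-group parts in all 9393 rows. The table does not state the reference group, and a positive coefficient was read as higher in the mutant from the order of names in the table's title. The snR4 tables give the authors' shrunken log2 fold changes with their errors, a Wald statistic as score, and the mean normalised count over 6 libraries, which is a signal scaled by the authors' size factors. The deposited p-value and adjusted p or q were used as the authors gave them. Depth per library is unknown, and p-values measure only the spread between the libraries deposited.

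A call was a deposited adjusted p under 0.05. The difference between ice and glucose was divided by the root of the summed squared errors, with Benjamini-Hochberg adjustment. Intervals are 95% normal intervals. Alternatives were thresholds of 0.01 and 0.1, a minimum absolute log2 fold change of 1, a filter on low levels, centring on the median, adjustment over all genes with a p, each transcript's own variance, and undone shrinkage. Shrinkage was undone with an assumed prior width of 2 times the largest SE, and results of that setting depend on this choice. The members, lists and alternatives were chosen with earlier results of these data known. Every member could be named, and those called in any table are given with their values. Contact sequences came from the study's supplementary lists and were matched to R64, whose gene table placed all 37 members, and coordinates refer to R64 alone.

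The scripts were tested on simulated data that used the real errors. In each, a change of 1 in log2 was given to 200 genes, drawn for the 3 tables from the genes with the smaller errors. Of these 82.5% were recovered over 9380 genes for U3, 100% over 9418 for glucose, 100% over 9433 for ice and 99.5% over 9308 for the difference. In the snR4 tables no member changed by this much on the shrunken scale, and recovery of smaller changes was not measured. Python 3.11.15 with numpy, pandas, scipy and matplotlib was used.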

Additional observations from a re-analysis of the deposited data

Results flagged for a closer look

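GLK1 was called for a different response to the snR4 deletion in the 2 conditions by the test of the difference itself. The call was lost at a threshold of 0.01 and with the shrinkage undone under the assumed prior width. The log2 fold change of GLK1 was 0.34 ± 0.07 in glucose and -0.11 ± 0.10 on ice. The difference was -0.4476 with an adjusted p of 0.0343 over 9308 genes (two-sided normal test). Its mean level was 21456 normalised counts in the glucose table and 3456 on ice. The part of this level difference in the result was not tested.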

How the results depend on the processing

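No paired analysis was possible because the tables hold no value per library, and for the same reason no replicate could be left out in turn. With a minimum absolute log2 fold change of 1, the members called fell to 0 in glucose and to 0 on ice, beside 24 of 27 in the U3 comparison. For the difference between ice and glucose, 0 members were called with a threshold of 0.01 and 0 with the shrinkage undone, beside 1 by the test as reported. The other 26 alternatives of the counts and medians kept each count within a factor of 1.5, or each median within the spread of the members. Among them the count for U3 ran from 24 to 27, for glucose from 13 to 17 and on ice from 4 to 5. Centring the U3 table on its median left 2 members lower in place of 3. FBP1, ADH2 and PDC6 had mean levels under 100 in each table and standard errors of 0.13 to 0.60 on the log2 scale, which limits what could be called for them.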
